A study of Mus musculus with 45 samples.

Results

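The 8 genes described here are the RUNX genes Runx1, Runx2 and Runx3, their shared partner Cbfb, and the osteoblast and limb regulators Sp7, Dlx5, Dlx6 and Mef2c. They were chosen by name, by a rule that uses no measured value but with earlier results of these data known, and they make up 8 of the 35272 genes in the deposited tables. RUNX proteins bind DNA as a dimer with CBFB, the product of Cbfb, which does not touch DNA itself and stabilises the complex. In the limb, RUNX2 drives hypertrophic maturation of cartilage and commits mesenchyme to the osteoblast fate, RUNX3 acts beside it in cartilage, and RUNX1 is best known from blood stem cells and is also made in early skeletal mesenchyme. SP7, also called osterix, is needed downstream of RUNX2 for osteoblasts to form. DLX5 and DLX6 are homeodomain proteins from neighbouring genes that act upstream of osteoblast genes and in the outer limb ridge. MEF2C is a MADS-box factor of skeletal muscle, heart and endothelium that also promotes hypertrophy of cartilage cells.

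All 8 are protein-coding genes, placed by the deposited tables on build mm10. The RUNX genes and their partner are Runx1 (ENSMUSG00000022952) at chr16:92601466-92826149, Runx2 (ENSMUSG00000039153) at chr17:44495987-44814797, Runx3 (ENSMUSG00000070691) at chr4:135120652-135177990 and Cbfb (ENSMUSG00000031885) at chr8:105170674-105217989. The others are Sp7 (ENSMUSG00000060284) at chr15:102356606-102367182, Dlx5 (ENSMUSG00000029755) at chr6:6877805-6882085, Dlx6 (ENSMUSG00000029754) at chr6:6863334-6868568 and Mef2c (ENSMUSG00000005583) at chr13:83504034-83667080. Dlx5 and Dlx6 are neighbours on opposite strands. Counts were taken per gene, so a value does not separate a gene's transcripts.

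The series followed mouse forelimb buds in organ culture under bisphenol AF (BPAF), a bisphenol A analog that carries fluorine. Buds were taken from CD1 embryos on gestation day 13 and kept in culture bottles for 3, 24 or 48 h. The 9 groups were DMSO solvent alone as control, 1 µM BPAF or 5 µM BPAF at each of the 3 times, with 5 libraries of poly-A-selected RNA per group and 45 in all. Limbs of male and female embryos were pooled per bottle, the labels name no allele or transgene, and 1 medium recipe is given for all groups. The compound is named BPAF in titles and doses while the treatment text once spells out bisphenol A. One library, 1 µM 3 h replicate 5, carries a characteristic of 10 µM bisphenol A although its title and code place it at 1 µM BPAF, and it was kept there. The labels do not state that replicates come from separate culture days, so each p-value rests on how much these libraries vary, which may partly be technical.

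Sequencing depth ran from 14901842 to 25154115 counted reads per library (median 17820524). Markers of the tissues a limb bud holds were present in every control and 5 µM library at 48 h: the least-covered library had 6161 reads of Sox9 and 150033 of Col2a1 (cartilage), 1415 of Myod1 (muscle), 695 of Pecam1 (endothelium), 173 of Csf1r (macrophages) and 777 of Krt14 (epidermis). The samples are therefore mixtures of cell types. In such bulk samples, fewer cells of a type and less RNA per cell cannot be told apart, which holds for every difference given below.

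The RUNX proteins recognise the core TGTGGT, read on the other strand as ACCACA. RefSeq promoter windows (build GRCm38.p6, 250 bases before to 50 after each start) were searched on both strands for this core. The windows matched 5 of the 8 genes, with 2 starts each for Runx1 and Runx3, 1 for Runx2, 1 for Cbfb and 3 for Mef2c. Because the 3 RUNX genes rose together in the control cultures described below, the stretch where their first windows carry the core as a close pair is printed here as 30 bases each, 5′ to 3′ on the gene's strand, with both cores in capitals.
Runx1: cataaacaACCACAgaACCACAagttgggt
Runx2: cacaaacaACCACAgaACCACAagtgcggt
Runx3: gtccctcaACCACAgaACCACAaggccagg
The Runx2 window held 3 cores in all, those of Runx1 and Runx3 2 each. The Runx1 stretch is at chr16:92826025-92826054 on the minus strand and begins 21 bases into the transcript. The Runx2 stretch is at chr17:44814583-44814612 on the minus strand and begins 16 bases into the transcript. The Runx3 stretch is at chr4:135120503-135120532 on the plus strand, ahead of the annotated start. A core was present in 16.8% of all 32851 windows, and a pair in the same orientation with starts at most 9 bases apart in 0.0974%, which is 32 windows. The pair was noticed in these sequences before its spacing was searched for, so the share describes the windows and is no test. The second windows of Runx1 and Runx3 and the window of Cbfb held no core.

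Levels between genes were compared as CPM, the read count scaled to library depth, per kilobase of deposited gene length (CPM per kb), scaled between libraries by the TMM method of edgeR. In control cultures at 3 h, Cbfb stood highest at 52.6 ± 2.00 CPM per kb (SD, n = 5, as for all levels here). It was followed by Dlx5 at 10.4 ± 1.13, Mef2c at 7.33 ± 0.452, Runx2 at 3.72 ± 0.534, Runx3 at 3.32 ± 0.514, Sp7 at 3.25 ± 0.363, Dlx6 at 2.29 ± 0.503 and Runx1 at 1.14 ± 0.0794. The libraries of Runx2 and Runx3 overlapped in this order, as did those of Runx3 and Sp7, while all other neighbours were separate. By 48 h the control order had become Cbfb (55.0 ± 4.35), Mef2c (22.8 ± 2.94), Sp7 (13.0 ± 0.889), Dlx5 (11.6 ± 0.625), Runx2 (7.43 ± 0.772), Runx3 (5.70 ± 0.496), Runx1 (2.06 ± 0.501) and Dlx6 (1.97 ± 0.344). In this later order Sp7 overlapped Dlx5, and Runx1 overlapped Dlx6. Cbfb was thus the most abundant transcript per length at both times, and the mean of Sp7 moved from below those of Runx2 and Runx3 at 3 h to above them.

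In the control cultures all 3 RUNX genes rose with time. Of the 8 members, edgeR called 5 higher and 0 lower at 24 h against 3 h, where 37.8% of all genes tested were called. At 48 h against 24 h it called 3 higher and 0 lower against 16.3% of all genes, and at 48 h against 3 h it called 5 higher and 0 lower against 50.9%. The 3 comparisons share control libraries. A call is a Benjamini-Hochberg adjusted p under 0.05 over all genes tested, and all 8 members passed the filter on low counts in each comparison. At 3 h the Runx2 level in the 5 control libraries was 33.7, 31.7, 40.6, 28.8 and 29.7 CPM. At 24 h it was 55.3, 55.9, 52.4, 56.2 and 55.1 CPM, and at 48 h it was 74.0, 55.8, 62.6, 68.0 and 67.9 CPM. Every 24 h library lay above every 3 h library, whereas 1 of the 48 h libraries fell among those of 24 h. The fitted log2 rise of Runx2 was 1.00 ± 0.09 (SE) from 3 to 48 h, with an edgeR adjusted p of 7.51e-08. From 24 to 48 h its log2 change was 0.25 ± 0.07 (edgeR adjusted p = 0.0256). That later call was lost when any of 6 single libraries was left out (control 48 h replicates 1, 4 and 5, control 24 h replicates 1, 2 and 3), with edgeR adjusted p between 0.0501 and 0.0670.

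Runx3 rose early and then held its level. Its control libraries had 14.7, 16.7, 17.2, 20.5 and 14.0 CPM at 3 h and 27.7, 26.5, 27.5, 23.2 and 29.8 CPM at 24 h, with no overlap. At 48 h they had 27.9, 29.7, 24.5, 29.5 and 30.9 CPM, overlapping those at 24 h, with 1 library above all of them. The log2 rise of Runx3 was 0.69 ± 0.10 from 3 to 24 h (edgeR adjusted p = 4.08e-05) and its change from 24 to 48 h was 0.08 ± 0.08 (edgeR adjusted p = 0.601, 95% interval -0.11 to 0.27). Runx1, the least abundant of the family per kb of deposited gene length, had 13.9, 13.7, 12.4, 15.1 and 13.7 CPM at 3 h. At 24 h it had 17.5, 16.5, 23.4, 19.9 and 18.7 CPM, and at 48 h it had 35.1, 23.6, 24.3, 20.3 and 20.6 CPM. All libraries at 24 and 48 h exceeded those at 3 h, and 1 library at 48 h stood well above the rest. The log2 rise of Runx1 was 0.86 ± 0.13 from 3 to 48 h (edgeR adjusted p = 2.79e-05). Cbfb stayed near its starting level, with 173 to 189 CPM at 3 h and 169 to 207 CPM at 48 h and a log2 change of 0.07 ± 0.06 (edgeR adjusted p = 0.351, 95% interval -0.07 to 0.21).

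**Figure D1:**
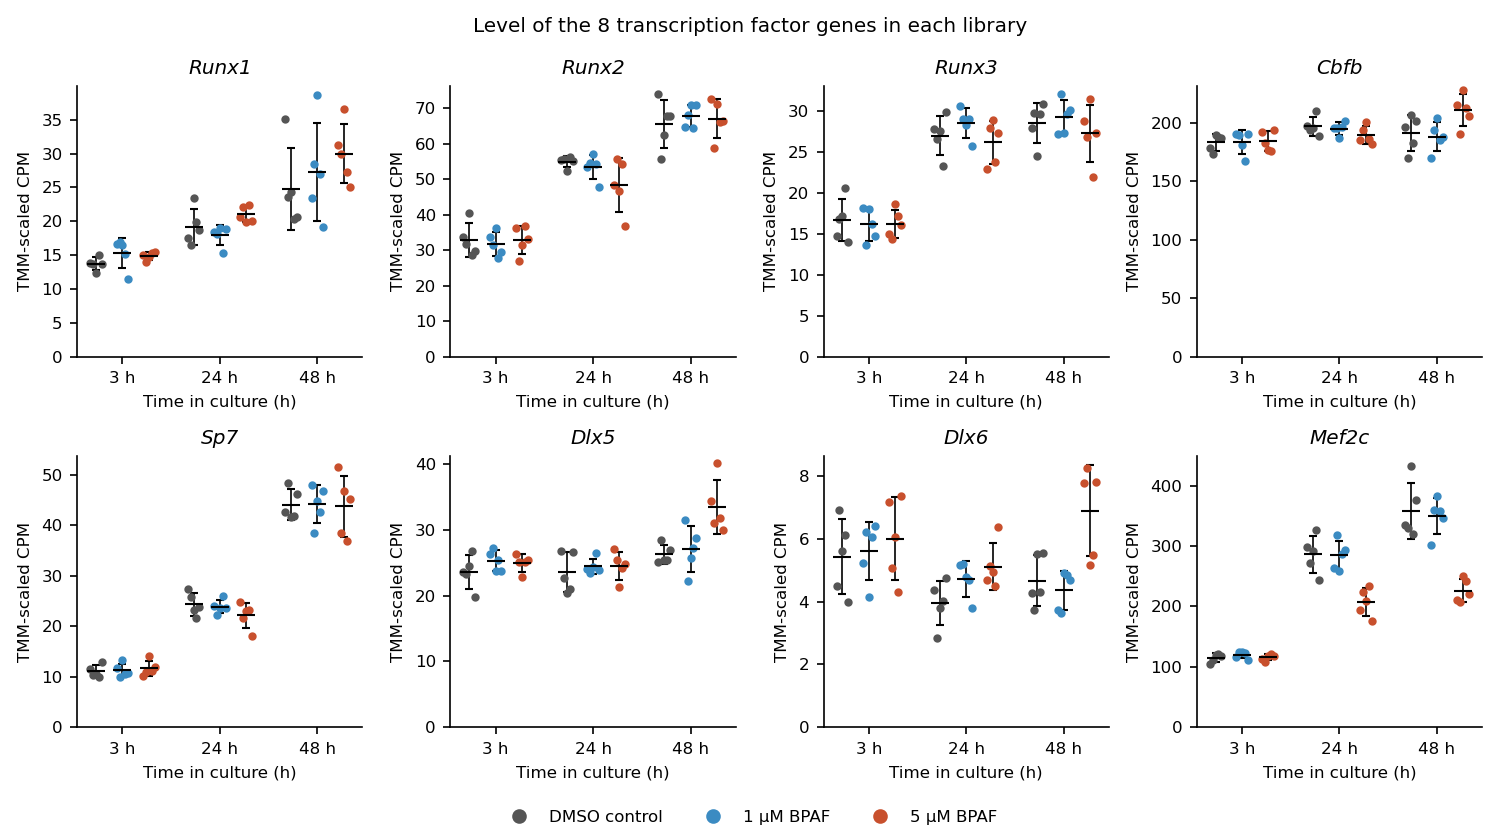
TMM-scaled CPM (y axis, linear from 0) of each of the 8 genes in each of the 45 libraries at 3, 24 and 48 h (x axis), with control in grey, 1 µM BPAF in blue and 5 µM BPAF in red; points are libraries in replicate order, bars are mean ± SD of 5. Runx1, Runx2, Runx3, Sp7 and Mef2c stand higher at 48 h than at 3 h in every dose, and at 48 h the Mef2c libraries at 5 µM lie between 207 and 250 CPM while the control libraries lie between 320 and 432 CPM.

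The osteoblast factor Sp7 had the largest rise of the 8 in control cultures. Its libraries had 11.5, 10.2, 10.4, 10.0 and 13.0 CPM at 3 h, then 27.3, 25.7, 23.2, 21.6 and 23.8 CPM at 24 h, and 42.6, 48.3, 41.6, 41.8 and 46.2 CPM at 48 h. The 3 times did not overlap. The log2 rise was 2.01 ± 0.09 from 3 to 48 h (edgeR adjusted p = 3.55e-12), of which 1.13 ± 0.10 fell between 3 and 24 h and 0.86 ± 0.08 between 24 and 48 h. Mef2c followed with 104, 112, 120, 122 and 118 CPM at 3 h, 298, 272, 291, 326 and 244 CPM at 24 h, and 335, 330, 432, 320 and 376 CPM at 48 h. Its libraries at 3 h were separate from both later times, which overlapped each other. The log2 rise of Mef2c was 1.65 ± 0.08 from 3 to 48 h (edgeR adjusted p = 1.10e-11), and the step from 24 to 48 h was 0.32 ± 0.09 (edgeR adjusted p = 0.0203, or 0.0625 without control 24 h replicate 2).

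Dlx5 and Dlx6 were not called in control cultures over time. Dlx5 had 19.8 to 26.9 CPM at 3 h, 20.5 to 26.9 CPM at 24 h and 25.1 to 28.5 CPM at 48 h. Dlx6 had 3.98 to 6.92 CPM at 3 h, 2.85 to 4.75 CPM at 24 h and 3.72 to 5.55 CPM at 48 h. The groups overlapped for both genes. From 3 to 24 h the log2 change of Dlx6 was -0.46 ± 0.19 (edgeR adjusted p = 0.0581), and the DESeq2 Wald test placed it at an adjusted p of 0.0433. The authors' deposited table gives it an adjusted p of 0.0638. Dlx6 rests on 51 to 146 reads per library, the fewest of the 8 members.

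The genes of bone and hypertrophic cartilage that these factors are known to regulate were also read over time. Of 24 listed, 20 were tested at 48 h against 3 h in control cultures and 20 were called higher, where 50.9% of all genes tested were called. Their median log2 change was 2.46 beside -0.01 for all genes tested. Ibsp, which encodes bone sialoprotein, went from 3 to 30 reads per library at 3 h to 641 to 829 CPM at 48 h (log2 change 9.73 ± 0.19). Smpd3, a sphingomyelinase of the growing skeleton, rose by 3.64 ± 0.09 on the log2 scale, Panx3, a pannexin channel of hypertrophic cartilage and osteoblasts, by 3.29 ± 0.10, and Alpl, the alkaline phosphatase of mineralising cells, by 2.85 ± 0.11. Col10a1, the collagen of hypertrophic cartilage, rose from a median of 5.72 to 191 CPM (log2 change 5.43 ± 0.24), and Col1a1, the main bone collagen, by 2.12 ± 0.08. Mmp13, the collagenase of terminal hypertrophic cartilage, rose by 3.74 ± 0.50 from at most 3 reads per library at 3 h. Sox9, the cartilage master factor, changed by -0.11 ± 0.06 (edgeR adjusted p = 0.102), while its target Col2a1 rose by 2.04 ± 0.06. A gene with hardly any reads at 3 h, such as Mmp13, passed the count filter only through the later group where it is high. The count and median of this list are therefore partly fixed by the filter, and with a list chosen knowing earlier results they describe these genes and carry no test.

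The questions put by the doses are whether BPAF moves these factors, at which dose and from which time. With 5 µM BPAF against control, edgeR called 0 of the 8 members at 3 h, where 0.18% of all genes tested were called. It called 1 member at 24 h (Mef2c, lower), where 1.57% were called, and 2 at 48 h (Dlx5 higher, Mef2c lower), where 7.16% were called. At 3 h no member had an unadjusted p under 0.05 either, and DESeq2 and limma-voom also called 0. With 1 µM BPAF, edgeR called 0 members at 3 h, 24 h and 48 h, where 0%, 0.00608% and 0% of all genes tested were called. Again no member had an unadjusted p under 0.05 at any of the 3 times, and DESeq2 and limma-voom called 0. Over all genes at 1 µM, 424 of 16631 genes at 3 h and 621 of 16479 at 48 h had an unadjusted edgeR p under 0.05. Both numbers are smaller than evenly spread p-values would give. DESeq2 called 0 at 3 h and 6 at 48 h, and limma-voom 0 at both. Without the 1 µM 3 h library of conflicting label, 0 members were called at 3 h as well.

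Between the doses, 5 µM against 1 µM, edgeR called 0 members at 3 h (0.036% of all genes), 1 at 24 h (Mef2c lower, 1.19% of all genes) and 2 at 48 h (Dlx6 higher and Mef2c lower, 5.96% of all genes). At 3 h no member had an unadjusted p under 0.05, and DESeq2 and limma-voom called 0. These comparisons share the 5 µM libraries with those against control. The test of whether the 5 µM effect differs between times called Mef2c, 1 member of 8, between 48 and 3 h (2.8% of all genes). It called 0 members between 24 and 3 h (0.336% of all genes; 1 member under an unadjusted p of 0.05; DESeq2 called 1 and limma-voom 0). It called 0 between 48 and 24 h (0.0693% of all genes; 1 member under an unadjusted p of 0.05; DESeq2 and limma-voom called 0).

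**Figure D2:**
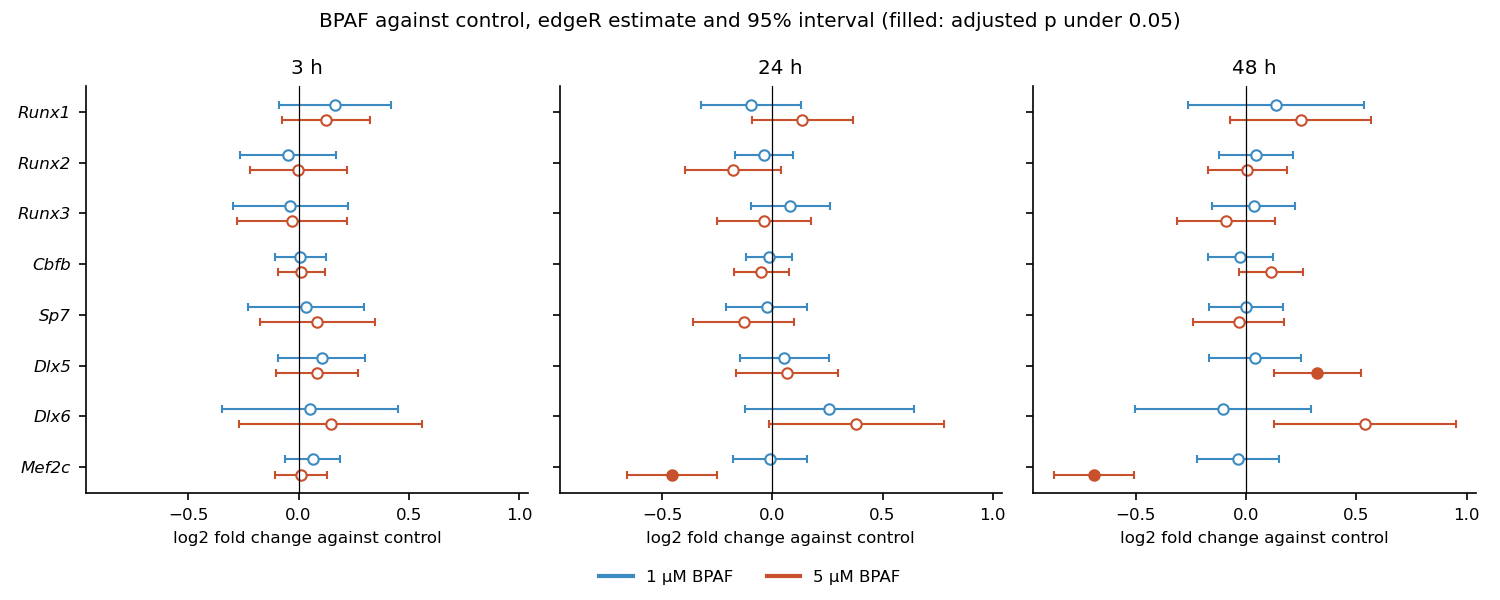
Log2 fold change (x axis) of each member (rows) for 1 µM (blue) and 5 µM BPAF (red) against control at 3, 24 and 48 h, with approximate 95% intervals derived from the edgeR fit over 5 libraries per group. Filled circles have an adjusted p under 0.05. Mef2c lies at -0.46 at 24 h and -0.69 at 48 h with 5 µM, Dlx5 at 0.32 at 48 h, and all other circles are open.

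The RUNX family and its partner were not called at either dose or any time. With 5 µM BPAF at 48 h, Runx2 had 72.7, 58.8, 71.3, 66.2 and 66.5 CPM, inside the control spread of 55.8 to 74.0 CPM. Its log2 difference was 0.01 ± 0.08 (edgeR adjusted p = 0.981), and the approximate 95% interval ran from -0.17 to 0.18. At 24 h Runx2 had 48.4, 55.7, 46.7, 54.5 and 36.8 CPM with 5 µM, where the lowest, replicate 5, stood apart from a tight control group of 52.4 to 56.2 CPM. The log2 difference was -0.18 ± 0.09 (edgeR adjusted p = 0.516), and -0.09 ± 0.07 without replicate 5 of both groups, the pair richest in haemoglobin transcripts at 24 h. With 1 µM the Runx2 libraries overlapped control at all 3 times, and the log2 differences were -0.05, -0.04 and 0.04 at 3, 24 and 48 h.

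Runx3 had 21.9 to 31.4 CPM with 5 µM and 24.5 to 30.9 CPM in control at 48 h, a log2 difference of -0.09 ± 0.10 (edgeR adjusted p = 0.689, 95% interval -0.31 to 0.13). Runx1 had 31.2, 29.9, 36.6, 27.2 and 25.1 CPM with 5 µM at 48 h, and the groups overlapped through control replicate 1 at 35.1 CPM. The log2 difference of Runx1 was 0.25 ± 0.14 (edgeR adjusted p = 0.359). Without that control library it was 0.41 ± 0.11 with an edgeR adjusted p of 0.0326. At 24 h the 5 Runx1 libraries at 5 µM, 19.8 to 22.4 CPM, lay above the 5 at 1 µM, 15.4 to 19.0 CPM, but overlapped the control range of 16.5 to 23.4 CPM. The log2 difference between the doses was 0.23 ± 0.09 (edgeR adjusted p = 0.362). Cbfb at 48 h had 190 to 228 CPM with 5 µM against 169 to 207 CPM in control, a log2 difference of 0.11 ± 0.06 (edgeR adjusted p = 0.352, 95% interval -0.03 to 0.26).

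The makeup of the RUNX family was read as the share of each paralog in their summed CPM per kb, a value within a library that no scaling between libraries changes. Runx2 made up 45.5% ± 4.89 at 3 h, 47.2% ± 2.39 at 24 h and 48.9% ± 2.55 at 48 h in control cultures. Runx3 made up 40.5% ± 4.33, 40.7% ± 2.47 and 37.6% ± 3.55, and Runx1 the remaining 14.0% ± 1.60, 12.1% ± 1.67 and 13.5% ± 2.63. With 5 µM at 48 h the shares were 49.0% ± 2.90 for Runx2 and 35.0% ± 2.40 for Runx3, and the Runx1 share ran from 13.8% to 17.5% over the 5 libraries. Shares of the 3 genes and the log2 ratio of Dlx6 to Dlx5 were compared over 12 pairs of groups, 48 two-sided exact permutation tests in all, and none passed the Benjamini-Hochberg adjustment. The smallest p, 0.00794, is the smallest that 5 libraries against 5 allow, so no single test among 48 could have passed, and the result does not show that the makeup was stable. It belonged to the Runx1 share at 24 h, with a mean of 14.1% (13.0% to 14.8%) at 5 µM against 11.3% (9.68% to 12.9%) at 1 µM, whose adjusted p in the exact permutation test was 0.381.

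**Figure D3:**
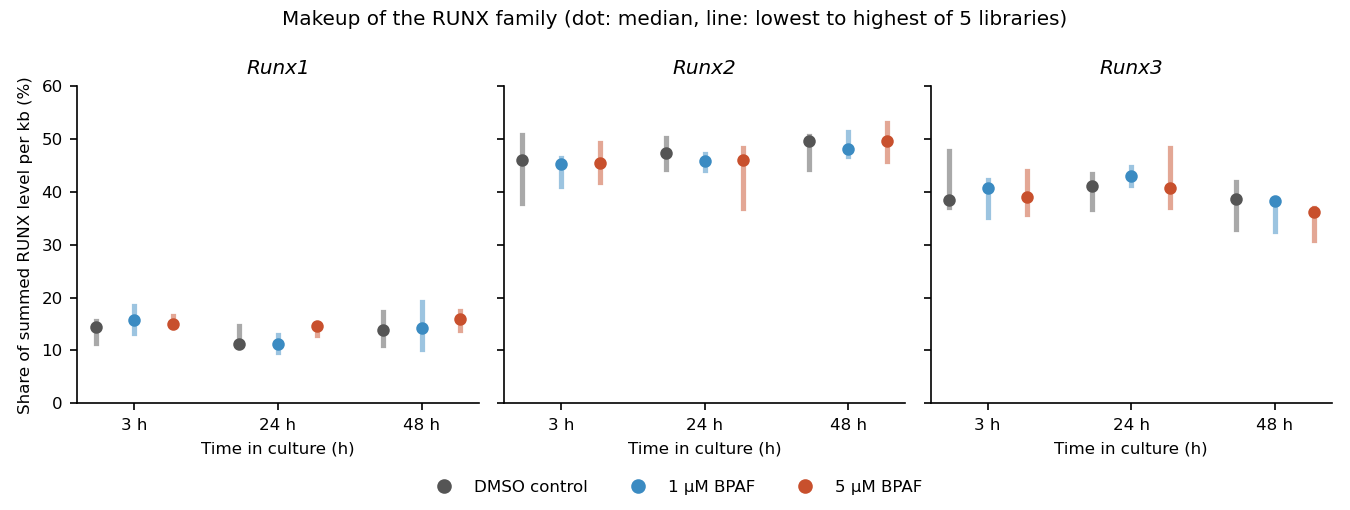
Share of Runx1, Runx2 and Runx3 in their summed CPM per kb (y axis, percent) at 3, 24 and 48 h (x axis) by dose; dots are medians and lines run from the lowest to the highest of 5 libraries. Runx2 and Runx3 hold the larger shares in all 9 groups, and control Runx1 medians lie between 11.3% and 14.5%.

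Sp7 was likewise not called with BPAF. At 48 h it had 51.6, 38.5, 46.7, 36.8 and 45.2 CPM with 5 µM, 48.1, 38.5, 44.8, 42.6 and 46.8 CPM with 1 µM and 41.6 to 48.3 CPM in control. The 3 groups overlapped, with the 5 µM libraries the most spread. The log2 difference of Sp7 at 5 µM was -0.03 ± 0.09 (edgeR adjusted p = 0.887, 95% interval -0.24 to 0.17), and at 24 h it was -0.13 ± 0.10 (edgeR adjusted p = 0.695).

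Several of the bone and hypertrophic cartilage genes that lie downstream of RUNX2 and SP7 did differ with 5 µM while most did not. At 24 h, 1 of the 19 tested was higher and 4 were lower, where 1.57% of all genes tested were called. The median log2 difference of the 19 was -0.03 beside 0.00 for all genes. At 48 h, 1 of 21 was higher and 5 were lower, with a median of -0.11, where 7.16% of all genes tested were called. Ibsp libraries had 13.9 to 52.2 CPM with 5 µM at 24 h and 94.2 to 156 CPM in control, a log2 difference of -1.997 ± 0.300 (edgeR adjusted p = 0.00295). At 48 h Ibsp had 171 to 507 CPM against 641 to 829 CPM, a log2 difference of -1.34 ± 0.23 (edgeR adjusted p = 0.000946). The Ibsp groups were separate at both times.

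Col10a1 fell by 1.64 ± 0.20 on the log2 scale at 24 h (edgeR adjusted p = 0.000855) from control libraries of 16.8 to 30.3 CPM to 5.71 to 11.3 CPM. At 48 h, its groups overlapped, with 41.4 to 175 CPM at 5 µM and 119 to 301 CPM in control, and it fell by 1.17 ± 0.34 (edgeR adjusted p = 0.0423). Mmp13 was higher at 24 h by 2.18 ± 0.49 (edgeR adjusted p = 0.0389) on 10 to 46 reads per library against 2 to 8, and at 48 h by 1.43 ± 0.36 (edgeR adjusted p = 0.0210) on 19 to 104 reads against 20 to 26. Sost, which encodes the osteocyte product sclerostin, was lower at 48 h by a log2 difference of -2.82 ± 0.43 (edgeR adjusted p = 0.000353), on 1 to 8 reads per library against 24 to 55. Mmp13 at 24 h and Sost at 48 h passed the count filter only through the group where they are high. Their calls, which are part of the counts given for this list, are therefore partly fixed by the filter and carry no test. The secreted protein gene Cthrc1 was lower at 24 h by -0.30 ± 0.05 and at 48 h by -0.31 ± 0.07. Smpd3 was lower at 24 h by -0.51 ± 0.11 (edgeR adjusted p = 0.0234).

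Col1a1 differed by -0.22 ± 0.11 at 48 h (edgeR adjusted p = 0.319), Col2a1 by 0.24 ± 0.07 (edgeR adjusted p = 0.0607) and Sox9 by -0.02 ± 0.07 (edgeR adjusted p = 0.933). Against 1 µM at 48 h, where 5.96% of all genes tested were called, 2 of the 20 tested were called, both lower. They were Ibsp (-1.07 ± 0.24, edgeR adjusted p = 0.0116) and Sost (-2.67 ± 0.45, edgeR adjusted p = 0.00115). Sost again passed the count filter only through the group where it is high. Col10a1 there had -0.80 ± 0.44 (edgeR adjusted p = 0.368) and Mmp13 0.49 ± 0.39 (edgeR adjusted p = 0.591). In the test of a changing effect, 0 of the 21 tested bone genes were called between 48 and 3 h, beside 2.8% of all genes. Some genes that differed later had few reads at 3 h, such as Ibsp with 3 to 30 per control library and 1 to 19 at 5 µM. For these genes the 0 calls do not show that the effect was the same at both times. With 1 µM, 0 of the tested bone genes were called by edgeR at any time, beside 0%, 0.00608% and 0% of all genes at 3, 24 and 48 h. At 24 h Ibsp had 72.9 to 117 CPM at 1 µM, overlapping control. Col10a1 had 12.2 to 16.1 CPM at 1 µM at 24 h, all below the control libraries of 16.8 to 30.3 CPM. Its log2 difference there was -0.72 ± 0.15 (edgeR adjusted p = 0.9996). At 48 h Col10a1 had 78.8 to 401 CPM at 1 µM, overlapping control.

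**Figure D4:**
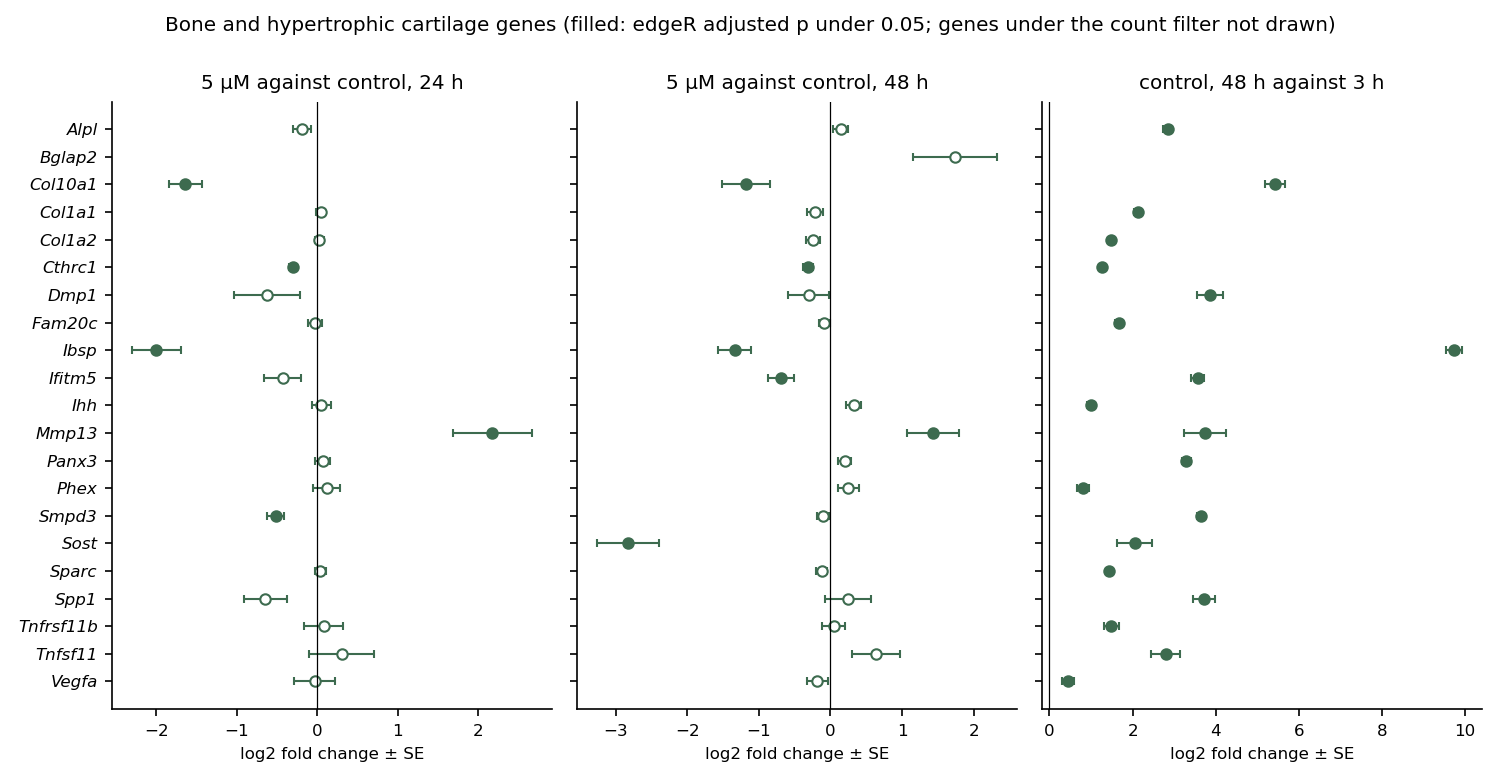
Log2 fold change ± SE (x axes, with a scale of their own per panel) of listed bone and hypertrophic cartilage genes (rows) for 5 µM BPAF against control at 24 and 48 h and for control at 48 h against 3 h; filled circles have an edgeR adjusted p under 0.05, and genes under the count filter are not drawn. Ibsp and Col10a1 lie left of 0 and Mmp13 right of 0 at both times with 5 µM, while all 20 genes tested lie right of 0 in the control time course.

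Dlx5 rose with 5 µM at 48 h. Its libraries had 34.4, 31.1, 40.2, 31.8 and 29.9 CPM with 5 µM and 25.1, 28.5, 25.5, 25.5 and 26.9 CPM in control. All 5 treated libraries lay above all 5 controls. The log2 difference was 0.32 ± 0.09 (edgeR adjusted p = 0.0282), and leaving out any of 6 single libraries (5 µM replicates 1 and 3, control replicates 1, 3, 4 and 5) moved the edgeR adjusted p to between 0.0551 and 0.0659. The authors' deposited table gives Dlx5 at 48 h a log2 fold change of 0.33 with an adjusted p of 0.00709. At 1 µM the libraries had 31.5, 22.2, 25.7, 27.2 and 28.8 CPM and overlapped both other groups. The log2 difference of Dlx5 between 5 and 1 µM was 0.29 ± 0.10 (edgeR adjusted p = 0.115).

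Its neighbour Dlx6 had 7.78, 8.26, 5.17, 5.49 and 7.81 CPM with 5 µM at 48 h. Control had 4.27, 3.72, 5.52, 4.32 and 5.55 CPM, and 1 µM had 3.72, 3.65, 4.91, 4.84 and 4.71 CPM. The 5 µM libraries overlapped the controls in the range of 5.17 to 5.55 CPM and were all above those of 1 µM. The log2 difference was 0.54 ± 0.18 against control (edgeR adjusted p = 0.0845) and 0.65 ± 0.18 against 1 µM (edgeR adjusted p = 0.0376). The authors' deposited table gives Dlx6 a log2 fold change of 0.55 against control with an adjusted p of 0.0467. The call against 1 µM was lost when any of 7 single libraries was left out (5 µM replicates 1, 2 and 5, 1 µM replicates 1, 2, 4 and 5), at edgeR adjusted p of 0.0569 to 0.103, and with the level of Y-linked genes as a covariate (0.0851). At 48 h the log2 ratio of Dlx6 to Dlx5 per kb was -2.37 ± 0.44 with 5 µM and -2.58 ± 0.29 in control. The effect on Dlx5 and Dlx6 at 48 h was not called as different from that at 3 h (log2 differences of 0.25 ± 0.12 and 0.40 ± 0.26, edgeR adjusted p = 0.375 and 0.580).

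Mef2c was the member that moved most with BPAF. At 3 h its libraries had 113, 109, 118, 121 and 118 CPM with 5 µM, inside the control spread of 104 to 122 CPM. At 24 h they had 195, 224, 209, 234 and 176 CPM against 298, 272, 291, 326 and 244 CPM in control. At 48 h they had 210, 207, 250, 242 and 220 CPM against 335, 330, 432, 320 and 376 CPM. Every 5 µM library lay below every control at 24 and at 48 h. The log2 difference was 0.01 ± 0.05 at 3 h (edgeR adjusted p = 0.972), -0.46 ± 0.09 at 24 h (edgeR adjusted p = 0.0165) and -0.69 ± 0.08 at 48 h (edgeR adjusted p = 2.51e-05). The call at 24 h was lost without any of 5 single libraries (5 µM replicates 1 and 3, control replicates 1, 3 and 4), at edgeR adjusted p of 0.0531 to 0.0729 and log2 differences of -0.46 to -0.40. The authors' deposited table gives Mef2c at 24 h a log2 fold change of -0.45 with an adjusted p of 0.000299. The call at 48 h was kept in all alternatives run. Mean Mef2c in 5 µM cultures went from 116 to 208 to 226 CPM over the 3 times, beside 115, 286 and 359 CPM in control.

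At 1 µM the 5 libraries had 264, 318, 259, 286 and 294 CPM at 24 h and 301, 360, 383, 357 and 347 CPM at 48 h, overlapping control. The log2 difference of Mef2c from control was -0.01 ± 0.07 at 24 h (95% interval -0.18 to 0.16) and -0.04 ± 0.08 at 48 h (-0.22 to 0.15). The 5 µM libraries were separate from those at 1 µM at both times, with log2 differences of -0.45 ± 0.08 (edgeR adjusted p = 0.00906) and -0.65 ± 0.07 (edgeR adjusted p = 8.05e-06). The 5 µM effect itself differed between 48 and 3 h by -0.69 ± 0.10 (edgeR adjusted p = 8.26e-05). Between 24 and 3 h it differed by -0.46 ± 0.10 (edgeR adjusted p = 0.0577), a value that DESeq2 placed at an adjusted p of 0.00631, and between 48 and 24 h by -0.22 ± 0.13 (edgeR adjusted p = 1.00).

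Some markers of several cell types, some of which use Mef2c, were lower with 5 µM as well. Their counts are read against the 1.57% and 7.16% of all genes called at 24 and 48 h. Of 22 skeletal muscle markers, 20 were tested at 24 h and 12 were lower with 5 µM (median log2 difference -0.61). At 48 h, 20 of 21 were lower and 0 higher (median -1.21), with the smallest p for Pax7, the satellite cell factor (-1.99 ± 0.13), slow myosin Myh7 (-1.75 ± 0.13), the calcium release channel Ryr1 (-0.85 ± 0.07) and nebulin, Neb (-0.996 ± 0.080). The summed muscle level was 1395 to 1814 CPM in control and 1631 to 1792 CPM with 5 µM at 3 h. It was 3964 to 4677 CPM against 2668 to 3331 CPM at 24 h, and 5000 to 7899 CPM against 2676 to 3239 CPM at 48 h. The defining markers stayed well above 0: Myod1 averaged 111 CPM in control and 97.7 CPM with 5 µM at 48 h, and Acta1 914 and 486 CPM. Myod1 was the muscle marker not called at 48 h (-0.20 ± 0.10, edgeR adjusted p = 0.298).

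Endothelial markers were lower for 2 of 12 at 24 h (median -0.27) and 4 of 12 at 48 h (median -0.32), with a summed level of 400 to 427 CPM in control and 313 to 380 CPM with 5 µM at 48 h. Macrophage markers were lower for 3 of 14 at 24 h (median -0.49) and 8 of 14 at 48 h (median -0.62), with 282 to 378 CPM and 188 to 230 CPM. Schwann cell markers were lower for 1 of 6 at 48 h (Erbb3, -0.62 ± 0.09), with a summed level of 66.1 to 76.0 CPM in control and 45.9 to 55.6 CPM with 5 µM. Cdh19 of this list went the other way without a call (0.81 ± 0.27, edgeR adjusted p = 0.0883). Epidermis markers were lower for 2 of 8 at 48 h (Krt15, -0.99 ± 0.23, and Epcam, -0.49 ± 0.13) and erythroid markers for 1 of 5 (Hba-a1, -0.49 ± 0.14). The defining epidermis markers Krt14 (-0.01 ± 0.19) and Krt5 (-0.08 ± 0.18) were not called. Pecam1, Cdh5, Ptprc and Csf1r were above 0 in all libraries of both groups at 48 h. Of these, Ptprc was not called (-0.50 ± 0.22, edgeR adjusted p = 0.202), while Pecam1, Cdh5 and Csf1r were called lower. Of the chondrocyte markers, which belong to the other tissue where Mef2c is known to act, 0 of 15 were called at 24 and at 48 h (median 0.01 and 0.09). Against 1 µM at 48 h, 4 of 15 were higher, where 5.96% of all genes were called. The part of these cell types in the Mef2c difference was not tested.

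**Figure D5:**
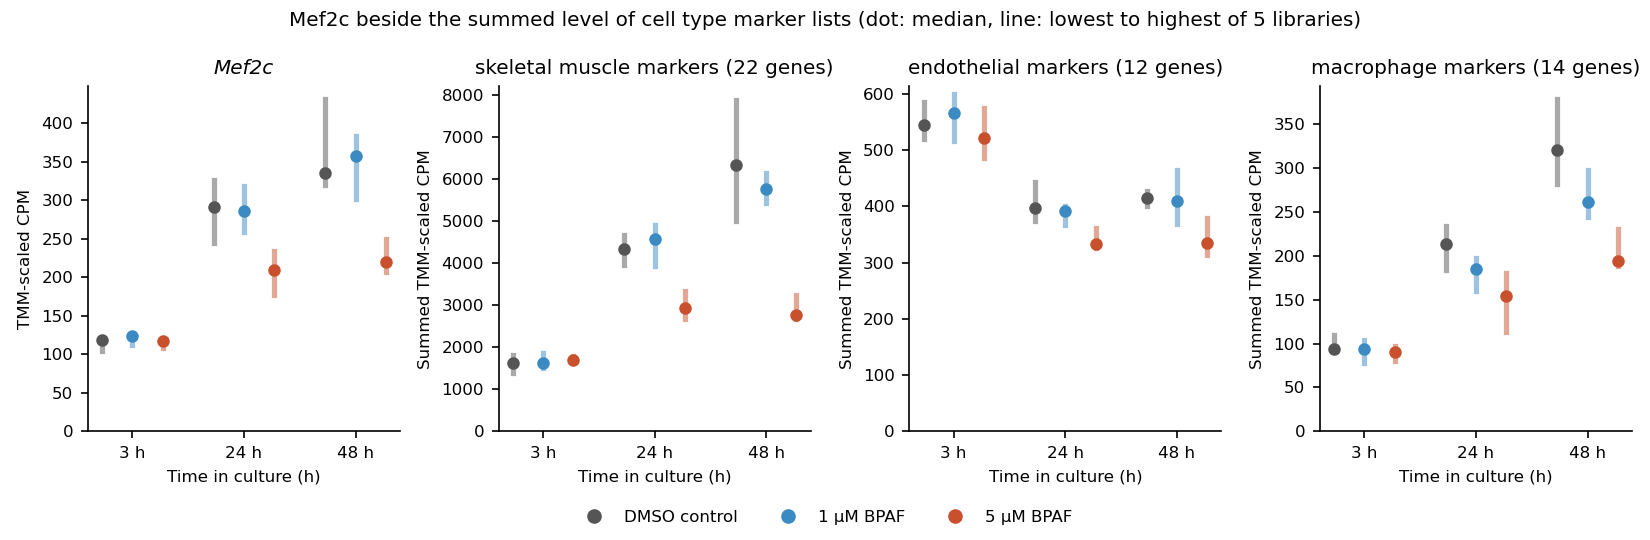
Mef2c in TMM-scaled CPM (left) and the summed CPM of 22 skeletal muscle, 12 endothelial and 14 macrophage markers (y axes, linear from 0) at 3, 24 and 48 h (x axis) by dose; dots are medians and lines run from the lowest to the highest of 5 libraries. At 48 h the 5 µM range lies below the control range in all 4 panels.

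The stretch ahead of the first annotated Mef2c start is shown because Mef2c was the member that fell, with the E-boxes CANNTG, the sites of muscle factors such as MYOD1, in capitals. It covers 250 bases at chr13:83503784-83504033 on the plus strand (RefSeq, GRCm38.p6).
Mef2c: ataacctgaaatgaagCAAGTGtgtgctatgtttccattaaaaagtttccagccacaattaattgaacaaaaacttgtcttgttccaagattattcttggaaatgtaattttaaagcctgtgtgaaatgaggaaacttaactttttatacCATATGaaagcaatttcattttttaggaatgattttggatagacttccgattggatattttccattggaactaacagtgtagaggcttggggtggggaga
It held 2 E-boxes, 0 RUNX cores and 0 matches to the MEF2 site searched. An E-box was present in 72.3% of all 32851 windows searched and a MEF2 site in 3.19%. The matches describe letters in this window, and Mef2c has other annotated starts.

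Few partners and relatives of the members were called with 5 µM BPAF, and their counts are read against the 0.18%, 1.57% and 7.16% of all genes called at 3, 24 and 48 h. Of 37 RUNX cofactors and repressors, all tested, 1 was higher with 5 µM at 3 h (Msx2, a homeobox repressor, 0.42 ± 0.08) and 1 at 24 h (Snai2, a zinc finger repressor, 0.32 ± 0.08). At 48 h, 3 were higher (Snai2 by 0.30 ± 0.07, Zfp423 by 0.26 ± 0.06 and Zfp521 by 0.24 ± 0.06) and 1 lower (Cbfa2t3, a corepressor of the ETO family, -0.42 ± 0.09). Their median was 0.01 at each time beside 0.00 for all genes. In control cultures at 48 h against 3 h, where 50.9% of all genes were called, 10 of the 37 were higher and 17 lower, with the smallest p for Msx2 (-2.15 ± 0.10), Hand2 (-1.01 ± 0.06), Tle3 (-0.77 ± 0.06) and, upwards, Wwtr1, the YAP partner TAZ (0.80 ± 0.06).

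Of 27 upstream signal genes, 1 was higher and 1 lower with 5 µM at 3 h: Id1, a target of BMP signalling, at 0.31 ± 0.05 and Nog, the BMP antagonist noggin, at -0.60 ± 0.07. At 24 h, 2 were higher, the growth factor receptor Fgfr3 (0.55 ± 0.07) and Id2 (0.33 ± 0.07). At 48 h, 3 were higher, Id2 (0.38 ± 0.06), Fgfr3 (0.48 ± 0.09) and Fgfr2 (0.23 ± 0.07). In control cultures 10 of the 27 were higher and 12 lower at 48 h against 3 h, again beside 50.9% of all genes. Of the 15 DLX, MEF2 and SP relatives, 0 were called by edgeR with 5 µM at the 3 times, among 14, 13 and 10 tested. In control cultures, 2 of 14 were higher at 48 h against 3 h beside the same 50.9%, Mef2a (0.82 ± 0.06) and Mef2d (0.66 ± 0.05), and 9 were lower, with Dlx2 at -3.77 ± 0.40 and Sp9 at -2.29 ± 0.17. Dlx2 was under the count filter for 5 µM against control at 48 h. It passed over time only through the 3 h group where it is high. The count of lower relatives is therefore partly fixed by the filter and carries no test.

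The genes whose pattern came closest to each member were taken over the 9 group means of log2 CPM, each centred on its own mean, among 12732 genes, as the smallest root mean square (RMS) difference in log2 units. Runx2 was nearest to Pdlim5 (RMS 0.0313), Wsb2 (0.0444) and Plagl1 (0.0452), and Runx3 to Unc13a (0.0499), Chrd (0.0567) and Obsl1 (0.0583). Runx1 was nearest to Tpp1 (0.0593), Scara3 (0.0638) and Pear1 (0.0639). The nearest to Sp7 were Inka2 (0.0840), Col14a1 (0.0906) and Vdr (0.101). Dlx5 was nearest to Dcaf4 (0.0482), Lactb (0.0501) and Slc30a4 (0.0505), and Dlx6 to genes that include Fam83h (0.0719) and Hgf (0.0954). Mef2c was nearest to Mymk (0.0434), Jph2 (0.0702) and Arpp21 (0.0828). Cbfb was not searched because its group means spanned only 0.20, under the 0.5 required. These are descriptions over 9 means and carry no test.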

How the data were processed

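The members and gene lists were chosen with earlier results of these data known. The 9 deposited tables each hold, per the file headers, unscaled counts per gene for the libraries of 2 groups. Beside them the authors deposited a normalized signal, FPKM, and their own log2 fold changes with p-values and adjusted p-values. The submitters' processing notes list CASAVA 1.8, STAR 2.5, HTSeq 0.6.1, DESeq2 and build mm10; their roles and the strand setting are not given in the sources used here. Without strand, reads of antisense genes cannot be told apart: exons overlap for Runx1 with Gm26626, Runx2 with Runx2os1 and Dlx6 with Dlx6os2, which averaged 0.0911, 0.343 and 0.0540 CPM.

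Counts were joined into 35272 genes. The 1311240 counts present in several tables were identical, and the 11.7% of gene and library combinations absent from a table were read as 0. No other per-library column entered a test, because each table was scaled separately. The positions of all 8 members were those of GENCODE M21 (mm10).

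Each comparison was fitted on its own libraries in edgeR 4.0.16 (R 4.3.3) with TMM scaling, filterByExpr (minimum count 10, minimum total 15) and the quasi-likelihood F-test, adjusted by Benjamini-Hochberg over all genes tested. The scripts were tested on simulated counts for 5 µM against control at 48 h. There 55.1% of changes of 0.5 and 71.4% of changes of 1 log2 unit were called, with 5 false calls among 129. A gene that is not called may therefore still have changed. Alternatives were DESeq2 size factors, no filter, DESeq2 1.42.0, limma-voom (limma 3.58.1), a replicate block, all 45 libraries in 1 fit, Y-linked genes as a covariate, and each replicate left out in turn. Leaving out the 24 h pair richest in haemoglobin transcripts was chosen after seeing the data. Titles and codes number 1 µM 48 h replicates 1 and 2 in reverse, so both numberings were run as blocks. Titles give the groups shared replicate numbers, and pairing was read from the data: deviations from group means of same-numbered libraries correlated above 0.1 in every pair for 1 µM against control at 24 h (lowest r 0.180) and for 5 µM against 1 µM at 3 h (0.189) and 24 h (0.100), and not in the other comparisons of 2 groups. Shares were tested with exact permutation tests (scipy 1.17.1).

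Named are all 8 members, up to 4 called genes per list with the smallest p, 6 anchors (Sox9, Col2a1, Col1a1, Col10a1, Ibsp, Mmp13) and the 3 nearest genes in pattern for members spanning at least 0.5 log2 units, with a mean CPM of at least 2. One gene that the rule names is not reported here. Promoters come from RefSeq (GRCm38.p6); Sp7, Dlx5 and Dlx6 have none printed.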

Additional observations from a re-analysis of the deposited data

Results flagged for a closer look

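In groups of 5 libraries, the gap of the highest or lowest library to its neighbour was compared with the whole range of the group by Dixon's 95% criterion over 81 groups of values, of which 4 were met, and chance meets about 1 in 20. Runx1 in 1 µM 24 h replicate 4 was low at 15.4 CPM, where the other libraries had 18.1 to 19.0 CPM. Runx1 in control 48 h replicate 1 was high at 35.1 CPM, and the next library had 24.3 CPM. Runx2 in control 24 h replicate 3 was low at 52.4 CPM, below a tight set of 55.1 to 56.2 CPM. The Runx2 share of the RUNX level in control 48 h replicate 2 was low at 44.4%.

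The 5 µM effect on Mef2c differed between times by a direct test, with a log2 difference of -0.69 between the effects at 48 and 3 h (edgeR adjusted p = 8.26e-05).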

How the results depend on the processing

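Of 2304 alternative values of single members, 2258 kept their side of the threshold, 26 lost a call, 20 gained one and 0 reversed a call. Among the 2258, 127 differed in sign, in values that were never called. Leaving out 1 library at a time gave 0 to 1 members called for 5 µM against control at 24 h, 1 to 2 at 48 h, 1 to 2 for 5 µM against 1 µM at 48 h, 1 to 3 for control at 48 h against 24 h, and 0 to 1 for the difference of the 5 µM effect between 24 and 3 h. That difference had 0 members called as fitted and 1, Mef2c, with no filter on low counts, with DESeq2, with the replicate block and with all 45 libraries in 1 fit. For 5 µM against 1 µM at 48 h, 4 members were called with all 45 libraries in 1 fit, where Cbfb and Dlx5 joined, and 1 with the Y-linked covariate; the block by library code added Cbfb (edgeR adjusted p = 0.0215). Dlx6 at 48 h against control was called by DESeq2 (adjusted p = 0.0386), in the fit of all 45 libraries (edgeR adjusted p = 0.0280) and without 5 µM replicate 3 (edgeR adjusted p = 0.0415). The cause of these changes was not tested.

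Where every same-numbered pair of libraries correlated above 0.1, the block changed no member's call. It moved the calls over all genes from 6 to 50 for 5 µM against 1 µM at 3 h, from 196 to 319 at 24 h, and from 1 to 2 for 1 µM against control at 24 h. In 5 µM against control, not every same-numbered pair passed 0.1. Their mean r was still 0.205, 0.267 and 0.271 at 3, 24 and 48 h, beside -0.0503, -0.0653 and -0.0676 for other pairs. Because each group was centred on its own mean, the negative values follow from the positive ones and are no separate contrast. By their own mean r, same-numbered libraries deviated together on average, which the main fit leaves out. The block there gave 62, 655 and 1672 calls over all genes at 3, 24 and 48 h, beside 30, 258 and 1171, and DESeq2 gave 133, 556 and 1580. With the block, 0, 1 and 2 members were called, as in the main fit. DESeq2 also gave 40 and 367 calls for 5 µM against 1 µM at 3 and 24 h, and the block by library code 1618 at 48 h beside 974. For the difference of the 5 µM effect, DESeq2 and the block gave 161 and 149 calls between 24 and 3 h beside 59, and 60 and 50 between 48 and 24 h beside 12. Depth limits Dlx6 most among the members, at 51 to 146 reads per library.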
